A study of Mus musculus with 18 samples.

Results

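The proteasome genes described here are the rows whose symbol begins with Psma, Psmb, Psmc or Psmd and a digit, without the immunosubunits Psmb8 and Psmb9 and without pseudogene symbols. That rule found 38 of the 33235 genes in the count tables of mouse liver, and 35 of these, called the core genes here, are subunits or assembly factors of the proteasome, the inducible Psmb10 among them. The other 3 are Psma8, a testis form of an alpha subunit, Psmb11, the thymus form of a catalytic subunit, and Psmc3ip, a meiotic recombination factor that shares only the letters of the name. Psmb11 was listed at 0 in every library but 1, where it had 3.14, and was not tested. The other 37 genes passed the filter on low values in both tables and were tested.

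Liver RNA came from mice that had received an antisense oligonucleotide (ASO) against Mdm2 or a control ASO. Both carried GalNAc, a sugar that hepatocytes take up through the asialoglycoprotein receptor. The groups were Mdm2 ASO on the HFHC diet (GalNAc-Mdm2ASO, genotype label MDM2 knockdown, 3 libraries), control ASO on HFHC (GalNAc-conASO, genotype label WT, 4 libraries), Mdm2 ASO on the CDAHFD diet (5 libraries) and control ASO on CDAHFD (5 libraries). HFHC is spelled out in no label used here. CDAHFD commonly stands for a high-fat diet that lacks choline and has defined amino acids, a mouse model of steatohepatitis. Strain, sex, age, dose and length of treatment are not given in the sources used here, and neither is the number of animals behind a library, so p-values measure the spread between these samples. On HFHC, the Mdm2 ASO samples numbered 6 and 7 did not differ in any gene, and they enter once, as library 6-7.

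The proteasome degrades proteins that carry ubiquitin chains. Its 20S core is a barrel of alpha rings, which gate the entrance, and beta rings, where Psmb5, Psmb6 and Psmb7 cut the chain. The 19S regulatory particle binds ubiquitin, removes it and threads the substrate into the core with a ring of ATPases. Mdm2 is the ubiquitin ligase that sends p53 to this machine. When proteasome activity falls, the transcription factor NRF1 (Nfe2l1) raises the subunit genes together, and in inflamed tissue Psmb8, Psmb9 and Psmb10 take the places of Psmb5, Psmb6 and Psmb7 to form the immunoproteasome.

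RefSeq promoter sequences were found for 31 of the 38 genes, all but Psma8, Psmb1, Psmb2, Psmb7, Psmc3, Psmd3 and Psmd7. Shown here are the 250 bases before the start of the 5 genes, chosen after their values were seen. Psmb5 and Psmb6 are catalytic subunits that fell on HFHC and differed between the diets. Psmd8 and Psmd11 are lid subunits that fell on both diets, and Psmd9 is a chaperone that rose on CDAHFD. Build is GRCm38.p6, each sequence reads 5′ to 3′ on the strand of the gene, and capitals mark the motif letters named after the sequences.
Psmb5 (chr14:54617996-54618245, minus strand): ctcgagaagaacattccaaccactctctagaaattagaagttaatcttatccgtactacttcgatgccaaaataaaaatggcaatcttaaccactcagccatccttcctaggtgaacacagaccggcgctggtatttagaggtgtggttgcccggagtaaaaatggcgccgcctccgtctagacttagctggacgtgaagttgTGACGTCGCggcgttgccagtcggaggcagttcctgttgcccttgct
Psmb6 (chr11:70525107-70525356, plus strand): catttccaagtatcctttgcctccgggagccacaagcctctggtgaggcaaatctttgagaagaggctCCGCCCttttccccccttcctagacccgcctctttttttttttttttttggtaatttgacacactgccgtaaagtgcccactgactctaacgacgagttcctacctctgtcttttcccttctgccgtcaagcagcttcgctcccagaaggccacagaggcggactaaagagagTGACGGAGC
Psmd8 (chr7:29180674-29180923, minus strand): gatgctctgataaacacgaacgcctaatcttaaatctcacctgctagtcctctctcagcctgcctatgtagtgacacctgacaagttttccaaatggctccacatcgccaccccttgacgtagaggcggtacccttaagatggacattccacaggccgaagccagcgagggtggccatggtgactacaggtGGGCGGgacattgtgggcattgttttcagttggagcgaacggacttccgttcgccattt
Psmd11 (chr11:80428365-80428614, plus strand): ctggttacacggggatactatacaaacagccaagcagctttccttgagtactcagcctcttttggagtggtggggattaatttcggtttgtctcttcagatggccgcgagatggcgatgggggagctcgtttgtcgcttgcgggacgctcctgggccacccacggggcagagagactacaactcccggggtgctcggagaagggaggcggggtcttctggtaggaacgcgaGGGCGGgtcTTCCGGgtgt
Psmd9 (chr5:123227940-123228189, plus strand): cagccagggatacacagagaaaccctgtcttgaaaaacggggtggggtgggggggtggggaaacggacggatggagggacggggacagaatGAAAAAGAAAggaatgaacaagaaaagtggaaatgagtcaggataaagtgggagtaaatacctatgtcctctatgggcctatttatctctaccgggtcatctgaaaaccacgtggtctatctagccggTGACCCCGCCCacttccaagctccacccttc

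The motifs were searched on both strands of these 250 bases. The core of the antioxidant response element, TGACNNNGC, to which NRF1 and NRF2 bind with small Maf partners, began 47 bases before the start of Psmb5, 9 before that of Psmb6 and 31 before that of Psmd9. It was found in 5 of 31 members (16.1%) and in 10.1% of 26994 other promoters. The others that hold it are Psmd12 and Psmc6. In Psmd9 its last bases overlap a GC box. The GC box GGGCGG, a site of Sp factors, was found in 17 members (54.8%) and in 32.9% of other promoters, among them Psmd8, Psmd11 and, on the other strand, Psmb6. The ETS core CCGGAA was found in 13 members (41.9%) against 12.2% of other promoters, Psmd11 among them. The CCAAT box CCAAT was found in 13 members (41.9%) against 34.5%, and in none of the 5 sequences shown. The core of the interferon response element, GAAA followed by any 2 bases and GAAA, was found in 3 members (9.68%) against 3.03% of other promoters, in Psmd9, Psmd4 and Psmb3. Members with a promoter were also split into the 13 that fell on HFHC and the 18 others. The antioxidant core was found in 4 and 1 of these, and the GC box in 8 and 9. The ETS core was found in 6 and 7, the CCAAT box in 3 and 10, and the interferon core in 2 and 1. These shares were not compared by a test. A match describes the letters only.

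The libraries held 17770748 to 18798144 reads on HFHC and 22376178 to 31453055 on CDAHFD, and values are normalized counts of the authors, which were scaled within each diet's table. Mdm2 itself, the target of the ASO, had 420.45, 362 and 304 normalized counts in the Mdm2 ASO libraries 6-7, 9 and 10 on HFHC, against 907, 954, 963 and 956 in control ASO libraries. All Mdm2 ASO libraries lay below all control ASO libraries (log2 fold change -1.40, adjusted p = 1.1e-05). On CDAHFD Mdm2 averaged 647 ± 124 in Mdm2 ASO and 1565 ± 87.7 in control ASO livers (SD, n = 5 each; log2 fold change -1.29, adjusted p = 3.1e-05). Libraries on HFHC also differed in cell markers. Of 12 leukocyte markers, 10 rose, and their summed level was 26640 to 31540 in Mdm2 ASO and 4824 to 8135 in control ASO livers. All 6 red blood cell markers rose, with sums of 11540 to 31400 in Mdm2 ASO and 2603 to 5420 in control ASO livers. Of 13 mitochondrially encoded transcripts 10 fell, with sums of 662300 to 774000 in Mdm2 ASO and 1229000 to 1506000 in control ASO livers. On CDAHFD 0 of 12 leukocyte markers passed by limma-trend (1 at an unadjusted p under 0.05, and 0 called by edgeR or DESeq2), and the sums were 4918 to 13260 in Mdm2 ASO and 6659 to 13260 in control ASO livers. All 6 red blood cell markers had positive values there and did not pass, with sums of 4405 to 7714 in Mdm2 ASO and 2003 to 10750 in control ASO livers. Of 13 mitochondrially encoded transcripts 1 rose on CDAHFD, with 11 values positive and 2 negative. Their sums were 1394000 to 3148000 in Mdm2 ASO and 1594000 to 2213000 in control ASO livers. Of 10 hepatocyte markers, 0 passed on HFHC by limma-trend (0 at an unadjusted p under 0.05, 0 called by edgeR and 3 by DESeq2) and 1 fell on CDAHFD, and none was at 0 in any library. Their median log2 fold change on HFHC was -0.20, with 8 values negative and 2 positive. Hepatocyte marker sums on HFHC were 1683000 to 2496000 in Mdm2 ASO and 1565000 to 1909000 in control ASO livers. On CDAHFD these sums were 1983000 to 2344000 in Mdm2 ASO and 1881000 to 2837000 in control ASO livers. In bulk liver, fewer cells of a type and less RNA per cell cannot be told apart.

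On HFHC the proteasome genes were mostly lower in Mdm2 ASO livers. Of the 37 tested, 15 fell, 1 rose and 21 did not pass the test, so 43.2% were called. Among all 17441 genes tested, 30.6% passed, 13.8% as lower and 16.8% as higher. Higher genes were thus 55.0% of all calls, and 40.0% after quantile normalization or 69.9% with values scaled to library size alone. The median log2 fold change of the 37 genes was -0.21, against -0.01 for all genes tested, and 32 of 37 values were negative. For the 35 core genes the median relative to that of all genes was -0.23, and -0.12 after quantile normalization. With library size scaling it was -0.22, where the median itself was -0.13 and that of all genes 0.10. In 18 of 37 genes (48.6%) every Mdm2 ASO library lay below every control ASO library, against 18.0% of all genes tested. The summed level of the 38 genes was 46709, 49800 and 55165 normalized counts in Mdm2 ASO libraries 6-7, 9 and 10, against 61334, 60719, 62262 and 55862 in control ASO libraries 1, 2, 4 and 5. The decrease was widest in library 6-7, whose median deviation over the 35 core genes was -0.34 on the log2 scale, and narrowest in library 10, with -0.13. The leukocyte, red cell and mitochondrial transcripts given above moved in the same comparison. The 10 hepatocyte markers had a median of -0.20, near the -0.21 of the proteasome genes. The hepatocyte values ran from -0.37 to 0.52, and the sums of these markers overlapped between the groups. The part of these lists in the proteasome values was not tested. Without Mdm2 ASO replicate 9, 7 members fell in place of 15, and with values scaled to library size alone 8 fell and 2 rose.

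**Figure D1:**
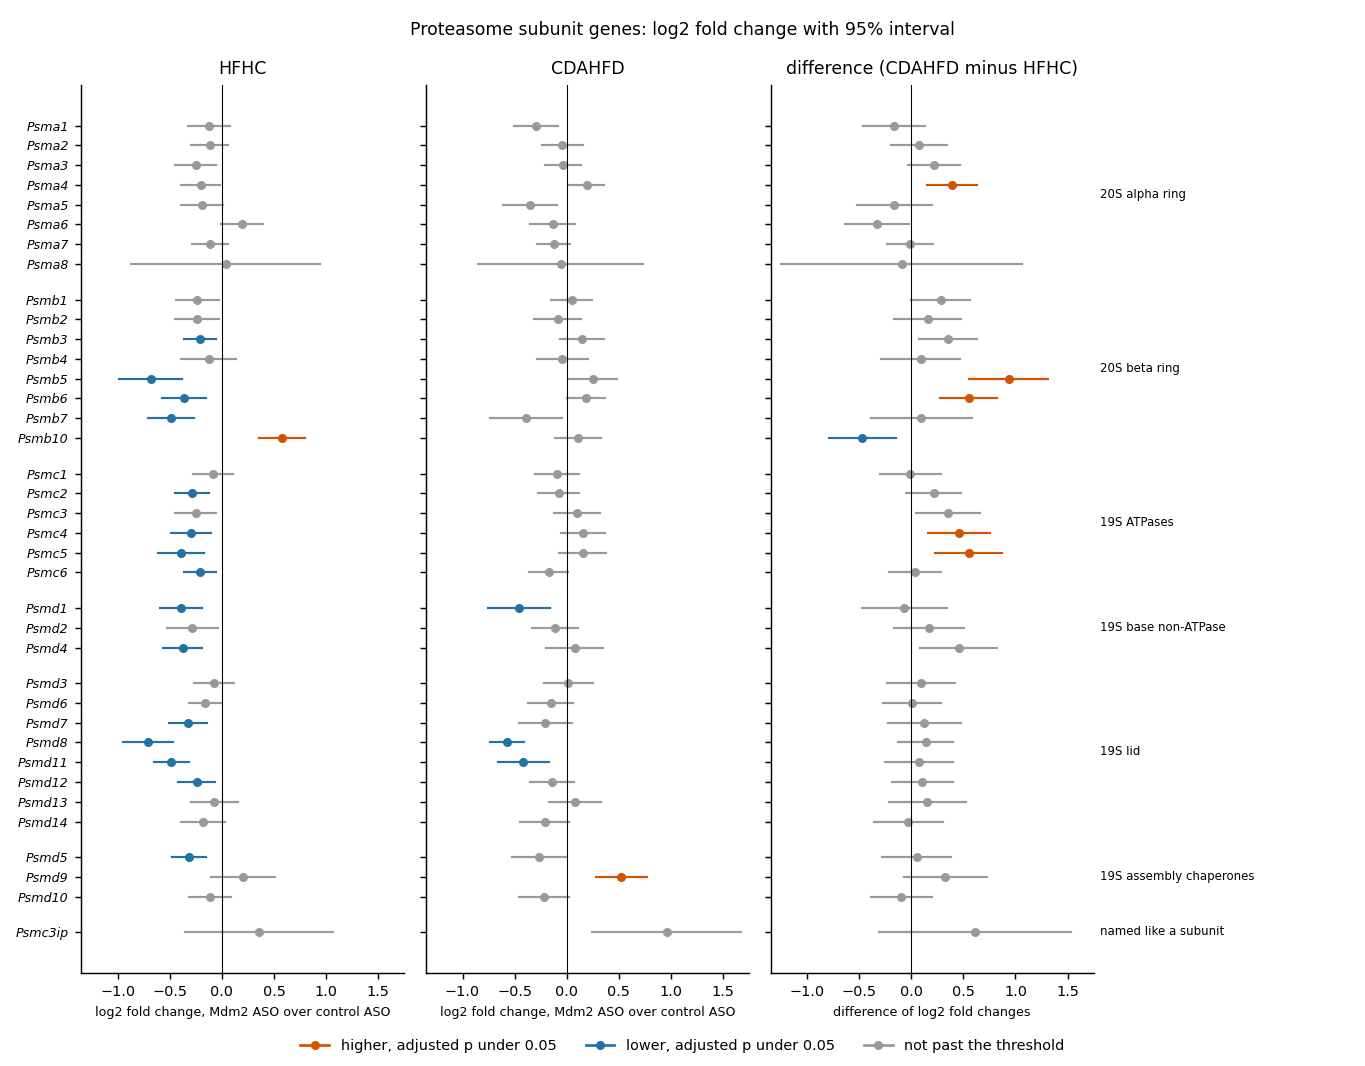
Log2 fold change of Mdm2 ASO over control ASO for the 37 tested proteasome genes (points) with 95% intervals (lines), on HFHC, on CDAHFD and for the difference of the 2 effects, ordered by subcomplex. On HFHC 15 genes are blue (lower) and Psmb10 is orange (higher), while on CDAHFD 4 genes are coloured.

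The catalytic subunits fell together on HFHC. Psmb5 (ENSMUSG00000022193), which carries the chymotrypsin-like activity, had 1110.4, 1346 and 1697 normalized counts in Mdm2 ASO libraries 6-7, 9 and 10, against 2367, 2110.5, 2342 and 1974 in control ASO libraries 1, 2, 4 and 5. The groups did not overlap, and library 6-7 was lowest (log2 fold change -0.68, SE 0.14, adjusted p = 0.00436). Psmb6, the caspase-like subunit, had 1624, 1768 and 2009 in Mdm2 ASO libraries, against 2408, 2323, 2468 and 2076 in control ASO libraries. Again no Mdm2 ASO library reached the lowest control ASO library (log2 fold change -0.37, SE 0.09, adjusted p = 0.0158), though without Mdm2 ASO replicate 9 the call was lost (adjusted p = 0.0617). Psmb7, the trypsin-like subunit, had 1739, 1743 and 2179 in Mdm2 ASO libraries, against 2745, 2685, 2761 and 2366 in control ASO libraries. The groups were separate (log2 fold change -0.49, SE 0.10, adjusted p = 0.0054). Exons of Psmb7 overlap those of Nek6 on the opposite strand in the GENCODE annotation. Whether counting used strand is not given in the sources used here, and Nek6 also fell (log2 fold change -0.53, adjusted p = 7.8e-04).

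The inducible subunits moved the other way on HFHC. Psmb10 (ENSMUSG00000031897), which replaces Psmb7, had 1003, 1012 and 999 normalized counts in Mdm2 ASO libraries, against 664, 602, 798 and 642 in control ASO libraries. All 3 Mdm2 ASO libraries were close to each other and above every control ASO library (log2 fold change 0.58, SE 0.10, adjusted p = 0.0019). Psmb8, which replaces Psmb5, had 1055, 1261 and 1144 in Mdm2 ASO libraries, against 829, 705, 791 and 698 in control ASO libraries. Those groups did not overlap (log2 fold change 0.61, adjusted p = 0.00104). Psmb9, which replaces Psmb6, had 658, 871 and 798 in Mdm2 ASO libraries, against 665, 528, 628 and 491 in control ASO libraries. Here the lowest Mdm2 ASO library lay within the control ASO range, and the gene passed the test (log2 fold change 0.43, adjusted p = 0.0356). The Psmb9 call was lost in 5 of 16 other settings, after quantile normalization and without Mdm2 ASO replicate 9 or 10 or control ASO replicate 2 or 5 (adjusted p up to 0.147). The 10 called leukocyte markers had higher levels in the same libraries, and their part in these 3 genes was not tested.

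**Figure D2:**
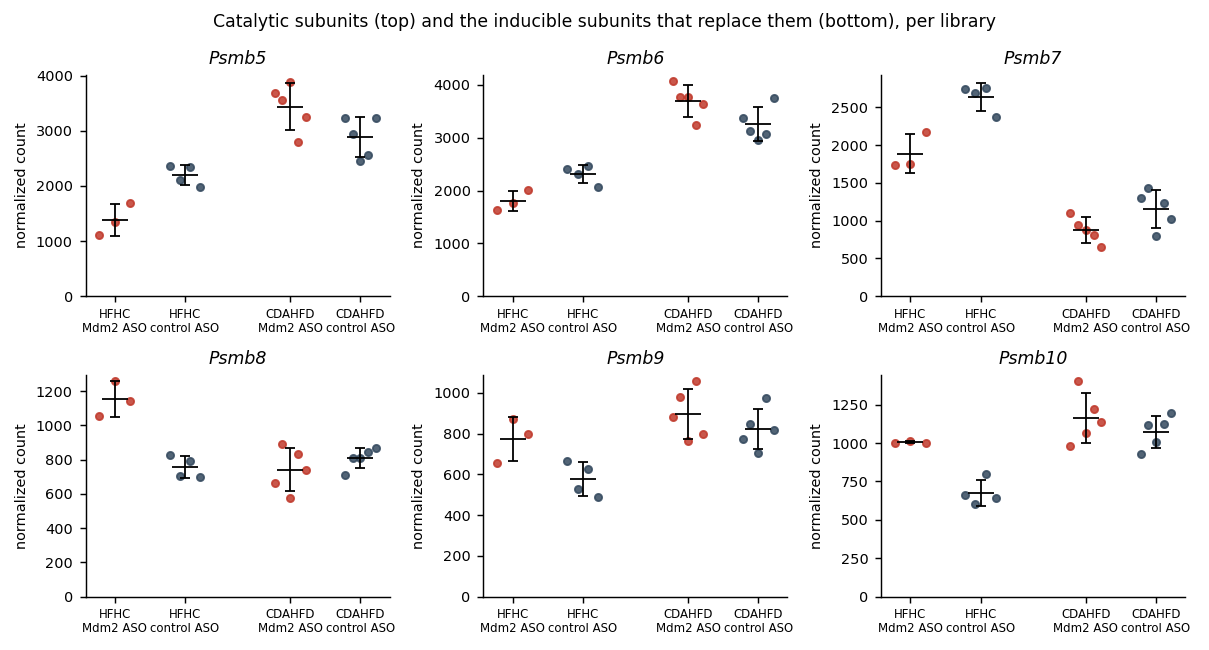
Normalized counts of the 3 catalytic subunits (top row) and of the 3 inducible subunits that replace them (bottom row), 1 point per library, with mean and SD as black bars, in Mdm2 ASO (red) and control ASO livers (dark blue). On HFHC the top row is lower and the bottom row higher in Mdm2 ASO livers, with overlap of the groups for Psmb9. On CDAHFD the groups overlap in all 6 panels.

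The reads of each inducible subunit were also divided by those of the subunit it replaces in the same library, a measure chosen after the values were seen, on which scaling between libraries has no bearing. Psmb8 per Psmb5 was 0.950, 0.937 and 0.674 in Mdm2 ASO libraries 6-7, 9 and 10 on HFHC, against 0.350, 0.334, 0.338 and 0.353 in control ASO libraries. The ratio was 2.45-fold higher, with no overlap (exact two-sided permutation p = 0.0286, adjusted p = 0.0572 over 6 tests). Psmb9 per Psmb6 was 0.405, 0.493 and 0.397 in Mdm2 ASO libraries, against 0.276, 0.227, 0.254 and 0.236 in control ASO libraries (1.73-fold, exact permutation p = 0.0286). Psmb10 per Psmb7 was 0.577, 0.581 and 0.459 in Mdm2 ASO libraries, against 0.242, 0.224, 0.289 and 0.271 in control ASO libraries (2.10-fold, exact permutation p = 0.0286). The smallest p that 3 against 4 libraries allow is 0.0286, and the adjusted value was 0.0572 for each of the 3 ratios. For Psmb8 per Psmb5 and Psmb10 per Psmb7, both genes of the pair were already separate on HFHC, in opposite directions. Full separation of both ratios was thus fixed beforehand, and their p-values add no support to the calls above. On CDAHFD the same ratios overlapped between the groups. They were 0.762-fold for Psmb8 per Psmb5 (exact permutation p = 0.111), 0.956-fold for Psmb9 per Psmb6 (exact permutation p = 0.667) and 1.42-fold for Psmb10 per Psmb7 (exact permutation p = 0.0714).

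**Figure D3:**
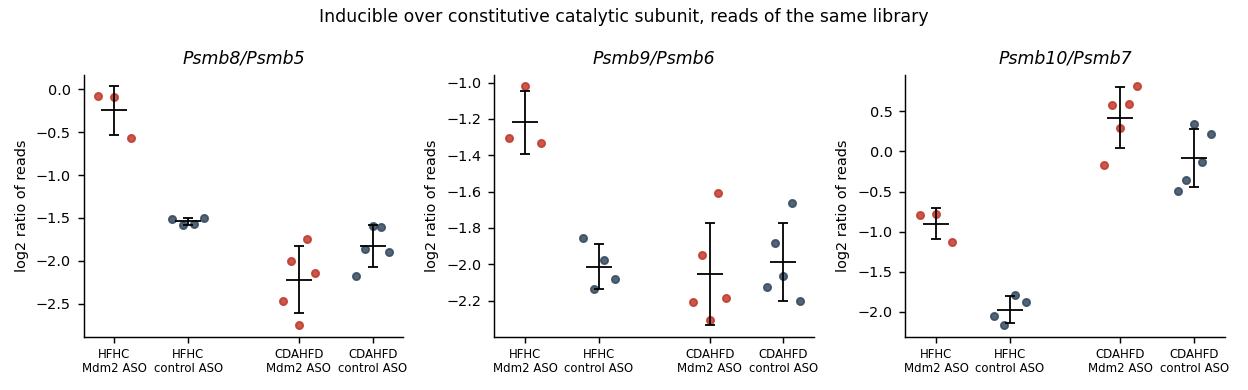
Log2 ratio of the reads of an inducible subunit to those of the constitutive subunit it replaces, 1 point per library, with mean and SD as black bars, in Mdm2 ASO (red) and control ASO livers (dark blue). On HFHC each ratio is higher in all 3 Mdm2 ASO libraries than in any control ASO library.

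Of the other beta subunits, which build the ring without cutting, Psmb3 fell on HFHC (log2 fold change -0.21, adjusted p = 0.0474), a call lost in 10 of 16 other settings and without any 1 of the libraries (adjusted p up to 0.316). Psmb1, Psmb2 and Psmb4 had log2 fold changes of -0.23, -0.24 and -0.13 and did not pass. Among the alpha subunits, which form the gate and its ring, 0 of 8 passed by limma-trend, with 2 at an unadjusted p under 0.05, 0 called by edgeR and 1 by DESeq2. Psma3 (-0.25, adjusted p = 0.0532), Psma4 (-0.20), Psma5 (-0.19), Psma1 (-0.13), Psma2 (-0.12) and Psma7 (-0.11) had negative log2 fold changes, and Psma6 (0.19) and the rare Psma8 (0.04) positive ones. The alpha ring genes had a median of -0.12 and the beta ring genes of -0.24, and the difference between the rings was not tested.

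In the 19S base, 4 of the 6 ATPases fell on HFHC. Psmc5 averaged 1097 ± 50.5 normalized counts in Mdm2 ASO (n = 3) and 1447 ± 161 in control ASO livers (n = 4; log2 fold change -0.39, adjusted p = 0.0132). Psmc4 (-0.30, adjusted p = 0.0263), Psmc2 (-0.29, adjusted p = 0.0153) and Psmc6 (-0.21, adjusted p = 0.047) fell as well. Without Mdm2 ASO replicate 9 each of these 4 calls was lost (adjusted p = 0.0524 for Psmc5), Psmc2 was also lost with library size scaling (adjusted p = 0.084), and over 16 other settings Psmc4 was lost in 6 (up to 0.105) and Psmc6 in 9 (up to 0.347). Psmc3 (-0.25, adjusted p = 0.055) and Psmc1 (-0.08) did not pass. Exons of Psmc3 overlap Slc39a13 on the opposite strand, which had a log2 fold change of 0.17 and did not pass. Psmd1, the large scaffold of the base, had 1256, 1404.5 and 1475 in Mdm2 ASO libraries, against 1669, 1946, 1930 and 1689 in control ASO libraries. The groups were separate (log2 fold change -0.39, adjusted p = 0.0094). Psmd4, a receptor for ubiquitin chains, had 2020, 2026 and 2218 in Mdm2 ASO libraries, against 2886, 2808, 2760.2 and 2414 in control ASO libraries. These groups were separate too (log2 fold change -0.38, SE 0.08, adjusted p = 0.00759). Psmd2, where shuttle factors dock, had a log2 fold change of -0.28 and did not pass (adjusted p = 0.0777).

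In the lid, which carries the deubiquitinase, 4 of 8 genes fell on HFHC, and all 8 values were negative. Psmd8, whose protein is the last to join the lid in yeast, had a decrease close in size to that of Psmb5. Psmd8 (ENSMUSG00000030591) had 1688, 1830.1 and 2079 normalized counts in Mdm2 ASO libraries, against 3449, 2629, 3104 and 3033 in control ASO libraries. Every Mdm2 ASO library lay below the lowest control ASO library (log2 fold change -0.71, SE 0.11, adjusted p = 9.5e-04). Psmd11 (ENSMUSG00000017428), whose protein clamps the lid onto the core, had 1436, 1440.5 and 1406 in Mdm2 ASO libraries, against 1933, 2086, 2158 and 1844 in control ASO libraries. The Mdm2 ASO libraries were nearly equal and separate from the control ASO libraries (log2 fold change -0.49, SE 0.08, adjusted p = 0.00109). Psmd7, the partner of the deubiquitinase (-0.33, adjusted p = 0.0133), and Psmd12, a scaffold (-0.24, adjusted p = 0.0451), fell. Both calls were lost without Mdm2 ASO replicate 9 and with library size scaling, Psmd7 in 2 of 16 other settings (adjusted p up to 0.0616) and Psmd12 in 7 (up to 0.168). The deubiquitinase Psmd14 itself had 610.3, 695 and 775 in Mdm2 ASO libraries, against 819, 800.4, 792 and 729 in control ASO libraries. Its groups overlapped, and it did not pass (log2 fold change -0.18, adjusted p = 0.168). The lid scaffolds Psmd6 (-0.16), Psmd3 (-0.08) and Psmd13 (-0.07) did not pass, and exons of Psmd13 overlap those of Sirt3 on the opposite strand.

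Psmd5, Psmd9 and Psmd10 encode chaperones that hold parts of the base before it is complete. Psmd5 fell on HFHC (log2 fold change -0.32, adjusted p = 0.00889), though not with library size scaling (adjusted p = 0.0823). Psmd10, known as gankyrin and as a partner of MDM2 in human cells, had a log2 fold change of -0.12 (adjusted p = 0.353). Psmd9 had 644, 741 and 995 normalized counts in Mdm2 ASO libraries, against 659, 744, 681 and 638 in control ASO libraries. Only Mdm2 ASO library 10 lay above the control ASO range, and the gene did not pass (log2 fold change 0.20, adjusted p = 0.302). Psmc3ip was at 10.1 to 12.3 in Mdm2 ASO and 7 to 10.3 in control ASO libraries, and did not pass on either diet.

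On CDAHFD few of these genes passed. Psmd8, Psmd11 and Psmd1 fell, Psmd9 rose and 33 of 37 did not pass, so 10.8% were called. Among 16803 genes tested 13.0% passed, 6.86% as lower and 6.12% as higher. The median log2 fold change of the 37 genes was -0.07, with 23 values negative and 14 positive, against -0.002 for all genes tested. The groups were separate with Mdm2 ASO below in 1 gene, Psmd8, and above in 2, Psmd9 and Psmc3ip. These are 2.7% and 5.41% of members, against 5.62% and 4.95% of all genes tested, so the shares are near or under those of all genes. The summed level of the 38 genes was 63163 to 81856 normalized counts in Mdm2 ASO and 65666 to 81712 in control ASO libraries. The share of reads from the 38 genes was 0.269 to 0.337% in Mdm2 ASO and 0.281 to 0.337% in control ASO libraries. On HFHC that share was 0.268 to 0.292% in Mdm2 ASO and 0.297 to 0.334% in control ASO libraries.

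Psmd8 was the member with the smallest p on CDAHFD. It had 3149, 2768, 2920.5, 3047 and 3141 normalized counts in Mdm2 ASO libraries 6 to 10, against 4793, 4704, 4082 and 4155 in control ASO libraries 1 to 4 and 4612 in 5. The highest Mdm2 ASO library lay far below the lowest control ASO library (log2 fold change -0.57, SE 0.08, adjusted p = 5.4e-04). Psmd11 had 2217, 1649, 1883, 1433 and 1659 in Mdm2 ASO libraries, against 2407, 2768, 2099.9, 2290.4 and 2161 in control ASO libraries. Only Mdm2 ASO library 6 reached the control ASO range (log2 fold change -0.42, SE 0.11, adjusted p = 0.0269). Psmd1 had 1324, 875, 1122, 878 and 950.05 in Mdm2 ASO libraries, against 1506, 1789, 1120.1, 1434 and 1232 in control ASO libraries. Libraries of both groups overlapped here, and the call was near the threshold (log2 fold change -0.46, SE 0.14, adjusted p = 0.0426).

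Psmd9 was the 1 member that rose on CDAHFD. Psmd9 (ENSMUSG00000029440) had 1850.5, 1703, 2060 and 1516 normalized counts in Mdm2 ASO libraries 6 to 9 and 1371 in 10, against 1336, 1235, 1017, 1249 and 1043 in control ASO libraries. All Mdm2 ASO libraries were above all control ASO libraries (log2 fold change 0.53, SE 0.12, adjusted p = 0.00974). The calls on Psmd8 and Psmd9 were kept in each of the 18 other settings and left-out libraries, while that on Psmd11 was lost in 5 (adjusted p up to 0.078) and that on Psmd1 in 8 (up to 0.117). Psmd11 was lost without Mdm2 ASO replicate 7 or 9 or control ASO replicate 1, 2 or 4. Psmd1 was lost without those, without Mdm2 ASO replicate 8 or 10 and with no filter. The count of members that fell was 1 without Mdm2 ASO replicate 7 or 9 or control ASO replicate 1, 2 or 4, 5 without Mdm2 ASO replicate 6, and 7 without control ASO replicate 3. Without Mdm2 ASO replicate 9, 2 members rose.

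**Figure D4:**
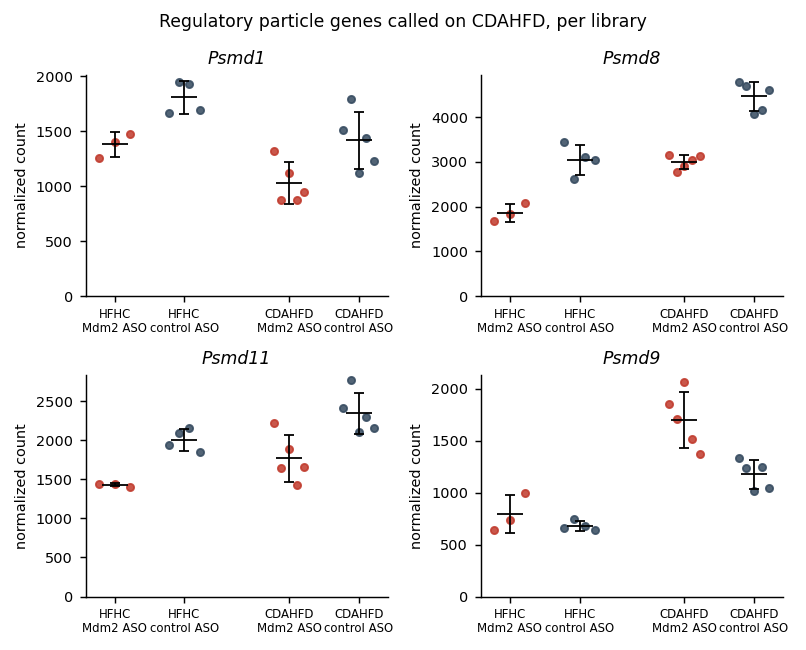
Normalized counts of the 4 members that passed the test on CDAHFD, 1 point per library, with mean and SD as black bars, in Mdm2 ASO (red) and control ASO livers (dark blue). Psmd1, Psmd8 and Psmd11 are subunits of the regulatory particle, and Psmd9 is an assembly chaperone. Psmd8 is lower in all Mdm2 ASO libraries of both diets, and Psmd9 is higher in all Mdm2 ASO libraries of CDAHFD.

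The remaining genes gave values on CDAHFD that did not pass. The catalytic subunits had log2 fold changes of 0.25 for Psmb5 (adjusted p = 0.141), 0.18 for Psmb6 (adjusted p = 0.179) and -0.39 for Psmb7 (adjusted p = 0.125). Psmb5 had 3690.5, 3552, 3880, 2790.4 and 3246 normalized counts in Mdm2 ASO libraries, against 3236, 2950.2, 2447, 2561 and 3226 in control ASO libraries. In 4 of the 5 Mdm2 ASO libraries Psmb5 lay above the control ASO range, and library 9 lay within it. Psmb6 had 4073, 3776, 3776, 3236 and 3632 in Mdm2 ASO libraries, against 3373, 3130, 2950.3, 3079 and 3754 in control ASO libraries. The Psmb6 groups overlapped, with libraries 6 to 8 of Mdm2 ASO above every control ASO library. Psmb10 had 982, 1405, 1069, 1220 and 1140.1 in Mdm2 ASO libraries, against 929, 1118, 1006, 1126 and 1194 in control ASO libraries, with wide overlap. Psmb7 had 1106, 944, 872, 809 and 650.3 in Mdm2 ASO libraries, against 1304, 1429.8, 792, 1235 and 1024 in control ASO libraries. Control ASO libraries 3 and 5 lay within the Mdm2 ASO range. Psmd14 had 850.4, 673, 785, 749.5 and 662 in Mdm2 ASO libraries, against 930.1, 1002.5, 695, 784 and 912 in control ASO libraries. Its groups overlapped (log2 fold change -0.21, adjusted p = 0.228). Psmd4 had 4784, 3887, 4678, 2848 and 4062 in Mdm2 ASO libraries, against 4305, 3892, 3616, 3305 and 3866 in control ASO libraries. Mdm2 ASO libraries held both the highest and the lowest Psmd4 value (log2 fold change 0.08, adjusted p = 0.742). Of the alpha subunits, Psma5 (-0.36, adjusted p = 0.0687) and Psma1 (-0.30, adjusted p = 0.0609) came closest to the threshold. The ATPases ranged from -0.17 for Psmc6 to 0.16 for Psmc4 and Psmc5. Psmc3ip was at 13.6 to 25.1 in Mdm2 ASO and 6.4 to 12.9 in control ASO libraries (log2 fold change 0.96, adjusted p = 0.0724), and its exons overlap the far more abundant Mlx on the opposite strand.

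**Figure D5:**
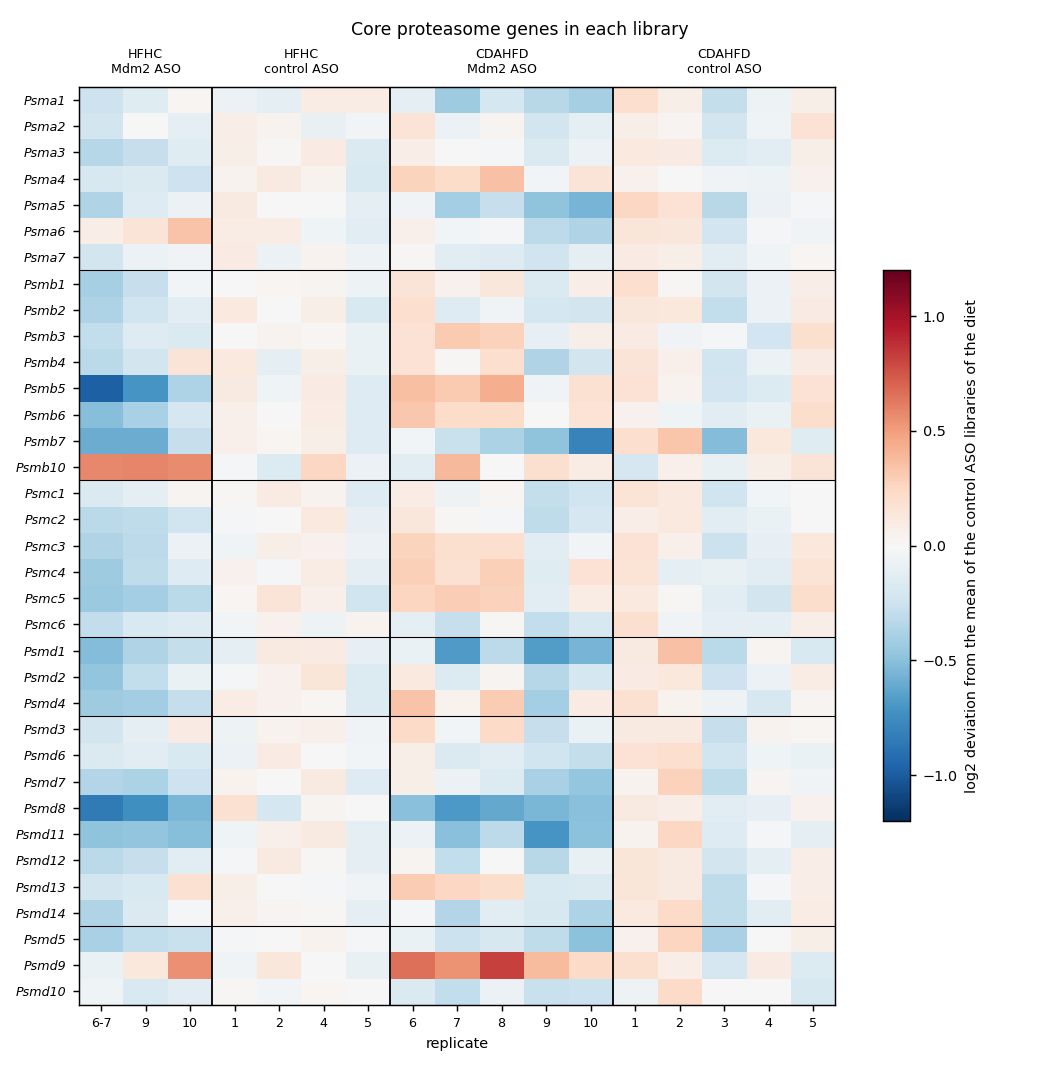
Log2 deviation of each of the 35 core proteasome genes from the mean of the control ASO libraries of the same diet, 1 column per library, rows ordered by subcomplex. Rows below 0 in every Mdm2 ASO column of both diets include Psmb7, Psmd1, Psmd5, Psmd8 and Psmd11, and the Psmb10 row is red in the HFHC Mdm2 ASO columns, where most other rows are blue.

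The 2 diets were then set against each other, as the CDAHFD effect minus the HFHC effect. Of 37 genes, 5 had a higher effect on CDAHFD, 1 a lower one and 31 did not pass, so 16.2% were called. Among 16333 genes tested, 23.5% passed, 9.83% as higher and 13.6% as lower. The share of members called was thus under that of all genes. Higher genes were 41.9% of all calls for the difference, 55.4% after quantile normalization and 26.6% with library size scaling. Psmb5 differed most, with log2 fold changes of 0.25 on CDAHFD and -0.68 on HFHC (difference 0.94, SE 0.18, adjusted p = 9.8e-04). Psmb6 followed with 0.18 on CDAHFD and -0.37 on HFHC (difference 0.55, SE 0.13, adjusted p = 0.00466). For Psmb7 the difference was 0.10 with a 95% interval from -0.38 to 0.58, and it did not pass. Psmb10 was the member with a lower effect, 0.11 on CDAHFD and 0.58 on HFHC (difference -0.47, adjusted p = 0.0324).

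The ATPases Psmc5 and Psmc4 and the alpha subunit Psma4 made up the rest of the 5. Psmc5 had 2423, 2474, 2446, 1836 and 2156 normalized counts in Mdm2 ASO libraries on CDAHFD, against 2199, 2040.2, 1846, 1741 and 2345 in control ASO libraries. On HFHC it had 1054, 1086 and 1153 in Mdm2 ASO libraries, against 1464, 1603, 1500.4 and 1222 in control ASO libraries. The groups overlapped on CDAHFD and were separate on HFHC (difference 0.55, adjusted p = 0.0152). Psmc4 had 2931, 2724, 2928, 2163 and 2701 in Mdm2 ASO libraries on CDAHFD, against 2685, 2228, 2256, 2187 and 2692 in control ASO libraries. On HFHC it had 1344, 1463 and 1622 in Mdm2 ASO libraries, against 1876, 1791, 1921 and 1667 in control ASO libraries. As with Psmc5, only the HFHC groups were separate (difference 0.45, adjusted p = 0.0267), and the call was lost in 5 of 27 other settings, among them without Mdm2 ASO replicate 6-7 or 9 or control ASO replicate 4 of HFHC (adjusted p up to 0.142). Psma4 had 3586, 3488, 3804, 2915 and 3338 in Mdm2 ASO libraries on CDAHFD, against 3095, 2989.9, 2901, 2866 and 3100.5 in control ASO libraries. On HFHC it had 1950.4, 1971 and 1874 in Mdm2 ASO libraries, against 2281, 2393, 2287 and 1951 in control ASO libraries. Its groups overlapped on both diets, and it passed on neither alone (difference 0.39, adjusted p = 0.0182). The genes that fell on both diets did not pass for the difference, with intervals of -0.13 to 0.40 for Psmd8, -0.26 to 0.40 for Psmd11 and -0.48 to 0.34 for Psmd1. Without CDAHFD Mdm2 ASO replicate 9, 8 members had a higher effect on CDAHFD in place of 5, and Psmb10 lost its call under 11 of the 17 ways to leave out 1 library.

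Over the 35 core genes the median pairwise correlation of log2 values, taken as deviations from the group means, was 0.60 over 7 libraries on HFHC and 0.72 over 10 on CDAHFD. Over all genes tested, which were not matched to the core genes in level, the same median was 0.003 on HFHC and -0.001 on CDAHFD. These correlations describe libraries that also share their scaling and depth. Across the 35 genes the log2 fold changes of the 2 diets, which share no control libraries, had r = 0.34 and rho = 0.17, and genes are not independent replicates. The 3 genes that fell on CDAHFD were among the 15 that fell on HFHC, and of these 3 only Psmd8 kept its CDAHFD call in every setting. The share of all genes that fell on both diets was not counted, so this overlap has no background beside it.

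Genes that work with the proteasome gave a mixed picture. Nfe2l1, which encodes NRF1, fell on both diets. It had 2452, 2754 and 2529 normalized counts in Mdm2 ASO libraries on HFHC, against 3581, 3650 and 3758 in control ASO libraries 1, 2 and 4 and 3499 in 5. On CDAHFD it had 2601, 2615, 2244, 2489.8 and 2249.6 in Mdm2 ASO libraries, against 3177, 3726, 3171, 3763 and 2729 in control ASO libraries. The groups were separate on both diets (-0.49 on the log2 scale with adjusted p = 8.0e-04 on HFHC, -0.43 with adjusted p = 0.00994 on CDAHFD). Of the 5 genes of the NRF1 pathway, Syvn1, a ubiquitin ligase of the endoplasmic reticulum, also fell on HFHC (-0.64, adjusted p = 0.00168) and not on CDAHFD (0.22, adjusted p = 0.158), with a difference of 0.86 (adjusted p = 3.8e-04). Nfe2l2, which encodes NRF2, averaged 3569 ± 137 in Mdm2 ASO and 2974 ± 117 in control ASO livers on CDAHFD and rose there (n = 5 each; log2 fold change 0.26, adjusted p = 0.0196). The call was lost in 3 of 18 other settings, with library size scaling and without Mdm2 ASO replicate 8 or control ASO replicate 4 (adjusted p up to 0.0571). On HFHC it did not pass (-0.10, adjusted p = 0.448).

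Of 7 textbook NRF2 targets, 5 fell and 1 rose on HFHC, and 3 fell on CDAHFD. Srxn1, which repairs peroxiredoxins, fell on both diets (-0.88, adjusted p = 0.00136 on HFHC, and -0.36, adjusted p = 0.0173 on CDAHFD), and the CDAHFD call was lost without control ASO replicate 2 (adjusted p = 0.0523). Gclm and Gclc, the subunits of the enzyme that limits glutathione synthesis, fell on HFHC (-0.42, adjusted p = 0.00172, and -0.51, adjusted p = 0.00302). Hmox1, the heme oxygenase, rose on HFHC (2.38, adjusted p = 3.9e-06) and fell on CDAHFD (-0.76, adjusted p = 0.0181). Gsr, the glutathione reductase, fell on CDAHFD (-0.41, adjusted p = 0.0161).

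Of the 5 chaperones of 20S assembly, Psmg3 (-0.37, adjusted p = 0.0369) and Pomp (-0.33, adjusted p = 0.0445) fell on HFHC and 0 of 5 passed on CDAHFD by limma-trend, with 1 at an unadjusted p under 0.05, 0 called by edgeR and 1 by DESeq2. Adrm1, a ubiquitin receptor of the base outside the symbol rule, fell on HFHC (-0.35, adjusted p = 0.0341), and its neighbour in the list, Sem1, did not pass. Psme4, the nuclear activator PA200, fell on CDAHFD (-0.75, adjusted p = 0.00126) and on HFHC (-0.31, adjusted p = 0.0139). The difference of -0.44 was at the threshold (adjusted p = 0.047) and lost its call in 14 of 27 other settings (adjusted p up to 0.122). Psme1, a subunit of the interferon-induced activator PA28, fell on CDAHFD (-0.32, adjusted p = 0.0194). Among 4 genes for proteins bound to the proteasome, Ecpas fell on HFHC (-0.29, adjusted p = 0.00702) and the deubiquitinase Usp14 on CDAHFD (-0.29, adjusted p = 0.0364). Over 16 other settings on HFHC the calls on Psmg3 and Pomp were lost in 6 each (adjusted p up to 0.127 and 0.133) and that on Adrm1 in 5 (up to 0.102). Library size scaling and leaving out Mdm2 ASO replicate 6-7 or 9 or control ASO replicate 2 or 4 lost each of these 3, as control ASO replicate 1 did for Pomp and Mdm2 ASO replicate 10 for Psmg3. Ecpas and Psme4 were lost on HFHC with library size scaling (adjusted p = 0.129 and 0.0699). On CDAHFD Usp14 was lost without any 1 of 7 libraries (adjusted p up to 0.105), and Psme1 without Mdm2 ASO replicate 8 or control ASO replicate 2 (up to 0.0556).

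Of 5 shuttle factors, which carry ubiquitinated proteins to the proteasome, Rad23b fell on HFHC (-0.30, adjusted p = 0.011) and on CDAHFD (-0.38, adjusted p = 0.0232), and Ubqln4 fell on HFHC (-0.27, adjusted p = 0.0211). Of the 6 genes of p97 and its cofactors, which pull proteins from membranes and complexes, Nsfl1c fell on HFHC (-0.39, adjusted p = 0.00514). Of 6 genes for ubiquitin and its activating enzymes, Rps27a, which encodes ubiquitin fused to a ribosomal protein, rose on HFHC (0.29, adjusted p = 0.0158). Of 8 antigen processing genes, Tap2 (0.27, adjusted p = 0.0222) and Tapbp (0.26, adjusted p = 0.0282) rose on HFHC, B2m fell there (-0.40, adjusted p = 0.0364), and Erap1, a peptide trimmer, fell on CDAHFD (-0.38, adjusted p = 0.0357). Many calls of these lists did not hold when 1 library was left out. B2m was lost in 7 of 16 other settings (adjusted p up to 0.261), Tapbp in 5 (up to 0.106) and Tap2 in 3 (up to 0.093), each of them without Mdm2 ASO replicate 9 or control ASO replicate 2 or 5. Erap1 was lost without any 1 of 7 of the 10 CDAHFD libraries (adjusted p up to 0.103). Ubqln4 was lost in 5 settings on HFHC (up to 0.117), library size scaling and leaving out Mdm2 ASO replicate 6-7 or 9 or control ASO replicate 2 or 4. Rad23b was lost without Mdm2 ASO replicate 9 on HFHC (adjusted p = 0.0563) and in 4 of 18 settings on CDAHFD (up to 0.0683), without Mdm2 ASO replicate 9 or control ASO replicate 1, 2 or 4. Rps27a was lost without control ASO replicate 5 (adjusted p = 0.0501).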

How the data were processed

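Liver RNA of 18 samples was read from 2 tables, 1 for each diet, with 33235 genes each. The deposited values are signal values, normalized counts that the authors scaled, named TMM-normalized per the file names. Per the submitters' processing notes, the tools were STAR 2.7.10b and featureCounts of Subread 2.0.3 and the build was GRCm39. Libraries were strand-specific per the labels' protocols, and the setting for strand or for reads that map to several places is not given in the sources used here. Each value was a whole number times 1 constant per library (at least 99.994% of nonzero values within 0.001), which gave whole reads back. A duplicate pair (6 and 7 of Mdm2 ASO, HFHC) was counted once, so 17 libraries entered.

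A gene was tested if its value reached 1 in a number of libraries equal to the smaller group, with limma-trend 3.58.1 in R 4.3.3 on log2(value + 0.5), within each diet. Fold changes are on that scale. The threshold was a Benjamini-Hochberg adjusted p of 0.05 over all genes tested, and all unnamed adjusted p are from it. Diets were compared by an interaction term over all libraries. Alternatives were other pseudocounts, filters and scalings, edgeR 4.0.16 and DESeq2 1.42.0 on the recovered reads, and leaving out each library. On HFHC and CDAHFD edgeR called 5335 and 2186 genes, DESeq2 5453 and 2956. The models were tested on simulated data whose planted changes were larger than that of any member. That test does not bear on changes of the size seen in the members.

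Members and gene lists were chosen with earlier results of these data known. Values in every library are given for the catalytic subunits, Psmb10, Psmd14 and Psmd4, for up to 5 called members of smallest p per direction and diet and for the 5 of smallest p for the difference. Companion lists have counts and up to 4 called genes per diet. Psmc3ip, Nek6, Slc39a13, Sirt3 and Mlx, given for overlap or low values, were chosen after their values were seen. The 5 pseudogene rows with member-like symbols reached at most 9.43 normalized counts. Promoters are from RefSeq on GRCm38.p6 and overlaps from GENCODE M21, matched for all 38 members, so no coordinates of the files' build are given.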

Additional observations from a re-analysis of the deposited data

Results flagged for a closer look

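Effects that differed between the diets are given as the CDAHFD effect minus the HFHC effect on the log2 scale. Among the members these were Psmb5 (0.94), Psmb6 (0.55), Psmc5 (0.55), Psmc4 (0.46), Psma4 (0.39) and Psmb10 (-0.47). Among the companion genes they were Syvn1 (0.86), Gclc (0.73), Psmg3 (0.54), Srxn1 (0.52), Pomp (0.47), Ubqln4 (0.46), Nfe2l2 (0.36), Nsfl1c (0.29), Psme4 (-0.44), Tapbp (-0.56), Psmb8 (-0.75) and Hmox1 (-3.14). Each passed the test of the difference itself (limma-trend, adjusted p under the threshold). Over 27 other settings the companion calls were lost in 14 for Psmg3, Nsfl1c and Psme4 (adjusted p up to 0.158, 0.262 and 0.122), in 5 for Pomp and Srxn1 (up to 0.196 and 0.114), in 4 for Nfe2l2 (up to 0.203), in 2 for Ubqln4 (up to 0.0873) and in 1 for Gclc (0.0588). Among the members Psmb10 was lost in 12 (up to 0.0696), Psmc4 in 5 (up to 0.142), Psma4 in 2 (up to 0.129), and Psmb6 and Psmc5 in 1 each, the replicate block (0.0624 and 0.127). Leukocyte markers differed in the same contrast, with 9 of 12 lower on CDAHFD relative to HFHC and a median of -2.89, and their part in these values was not tested.

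A library stood apart from its group in 3 of the 63 sets of 4 or 5 libraries looked at, and chance gives about 1 in 20. Mdm2 was at 860.8 in CDAHFD Mdm2 ASO library 6, against 563.8 to 646.2 in the others of that group, and at 907.3 in HFHC control ASO library 1, against 954.2 to 963.2. Nfe2l2 was at 3327 in CDAHFD Mdm2 ASO library 6, against 3597 to 3660.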

How the results depend on the processing

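Calls on 6 of the 15 members that fell on HFHC (Psmb5, Psmb7, Psmd1, Psmd4, Psmd8 and Psmd11) and the rise of Psmb10 were kept in each of the 16 other settings and left-out libraries. On CDAHFD Psmd8 and Psmd9 were kept in 18, and for the difference Psmb5 in 27. Library size scaling gave 2 members higher and 8 lower on HFHC, 5 lower on CDAHFD, and 3 higher and 2 lower for the difference. It put the median of all genes at 0.10 on HFHC and -0.11 for the difference, where the median of the core genes was -0.012 in place of 0.106, or 0.098 relative to all genes. Quantile normalization put the median of all genes at -0.11 on HFHC, changed the share of higher calls among all called genes to 40.0% against 55.0%, and left 0 members lower for the difference. The core median of the difference relative to all genes was then 0.029, and 0.1 in the analysis as reported. Pseudocount 5 gave 2 higher on CDAHFD, and DESeq2 gave 5 lower there. With replicates 6 and 7 on HFHC as 2 libraries, 23 members fell on HFHC and 8 were higher for the difference. A replicate block across diets left 1 higher and 1 lower for the difference. The core median of the difference was then 0.004, or 0.006 relative to all genes. Same-numbered libraries of the 2 diets had correlations of -0.07 to 0.11, with no differently numbered libraries set beside them. The main test did not treat the numbers as pairs, and these correlations cannot settle whether samples were paired. Within a diet the groups share no number. Leaving out 1 library gave 7 to 18 lower on HFHC, 1 to 2 higher and 1 to 7 lower on CDAHFD, and 4 to 8 higher and 0 to 1 lower for the difference. The cause of these changes was not tested. The read ratios of inducible to constitutive subunits differed between groups by 0.70 to 1.46 on the log2 scale on HFHC when any 1 library was left out, an alternative chosen after seeing the data. Values of about 10 normalized counts, as for Psmc3ip, rest on few reads.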
